A study of Mus musculus with 2 samples.

Results

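The integrated stress response genes compared here were Nupr1, Ddit3, Trib3, Chac1, Atf4, Atf5, Sesn2, Asns, Ddit4 and Vldlr, 10 of the 34650 gene names on a mouse expression array. They were chosen by name, with their differences between the 2 arrays of the series already known, so those differences are a description and support nothing beyond themselves. All 10 had a detected probe and were among the 16649 genes kept for the comparison. Both arrays held total RNA of the E14Tg2A mouse embryonic stem (ES) cell line (strain 129/Ola), and each was hybridised with a pool of 3 independent sets of experiments. The group called EpiSC came from ES cells given FGF2 (12 ng/mL) and Activin A (20 ng/mL) directly in chemically defined medium with N2 and B27 supplements, which pushes them towards the epiblast stem cell state. The group called ELA-EpiSC received the same factors at the same doses in the same medium after the ES cells had first formed Epiblast-Like Aggregates. Per the paper, these are dissociated ES cells grown as floating clusters in agar-coated dishes without LIF and serum. The paper describes dissociating the aggregates for the culture with FGF2 and Activin A. The study's question for this pair was how alike the profiles of the 2 cultures are. One label field of the EpiSC sample named an Argonaute immunoprecipitate, whereas its title, its description and its molecule field described total RNA, and the title was followed here. With 1 array a group there was no replicate, so no test was possible, no p-value is given, and every difference below is between these 2 pools.

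The integrated stress response is a shared reaction of cells to amino acid shortage, haem shortage, double-stranded RNA and misfolded protein in the endoplasmic reticulum (ER). Different kinases sense these stresses and phosphorylate the translation factor eIF2α, which lowers protein synthesis in general but favours translation of the transcription factor ATF4 from an mRNA with upstream open reading frames. ATF4 pairs with other basic leucine zipper (bZIP) factors on C/EBP-ATF composite elements and drives genes for amino acid uptake and synthesis, tRNA charging and, through CHOP, cell death. The level of Atf4 mRNA therefore says little about how much ATF4 protein a cell makes.

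The composite element joins a C/EBP site to an ATF site, and its letters are shown first because they are the regulatory sequence by which these genes are usually grouped. RefSeq promoter windows (GRCm38.p6), each running from 250 bases before to 50 bases after an annotated gene start, were found for all 10 genes, with 12 windows because Atf5 and Vldlr had 2 each. The 250 bases before the start are printed 5′ to 3′ on the strand of the gene for the windows in which the pattern TGATGNAA was found, with matches to either pattern searched in capitals. A match read from the other strand appears as its reverse complement.
Nupr1, chr7:126625471-126625720 (minus strand): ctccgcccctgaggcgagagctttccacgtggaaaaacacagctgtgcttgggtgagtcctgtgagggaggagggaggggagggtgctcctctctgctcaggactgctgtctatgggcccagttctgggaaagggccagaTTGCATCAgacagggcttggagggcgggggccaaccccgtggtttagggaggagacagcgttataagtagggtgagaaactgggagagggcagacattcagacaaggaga
Chac1, chr2:119350992-119351241 (plus strand): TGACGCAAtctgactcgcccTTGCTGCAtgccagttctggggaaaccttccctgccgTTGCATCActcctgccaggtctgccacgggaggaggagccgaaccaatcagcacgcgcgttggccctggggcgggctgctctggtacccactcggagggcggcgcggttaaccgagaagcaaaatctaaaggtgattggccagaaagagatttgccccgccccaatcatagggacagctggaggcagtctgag
Trib3, chr2:152344061-152344310 (minus strand): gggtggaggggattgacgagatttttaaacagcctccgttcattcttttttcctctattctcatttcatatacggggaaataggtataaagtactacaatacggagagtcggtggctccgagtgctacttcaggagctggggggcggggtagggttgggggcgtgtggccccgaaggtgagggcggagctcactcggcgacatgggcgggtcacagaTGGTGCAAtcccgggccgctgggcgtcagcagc
Asns, chr6:7693210-7693459 (minus strand): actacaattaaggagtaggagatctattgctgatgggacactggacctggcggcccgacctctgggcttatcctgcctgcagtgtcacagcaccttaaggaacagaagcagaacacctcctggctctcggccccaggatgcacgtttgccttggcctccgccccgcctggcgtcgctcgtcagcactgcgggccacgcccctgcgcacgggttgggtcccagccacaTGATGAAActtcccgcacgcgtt
Vldlr, chr19:27216770-27217019 (plus strand): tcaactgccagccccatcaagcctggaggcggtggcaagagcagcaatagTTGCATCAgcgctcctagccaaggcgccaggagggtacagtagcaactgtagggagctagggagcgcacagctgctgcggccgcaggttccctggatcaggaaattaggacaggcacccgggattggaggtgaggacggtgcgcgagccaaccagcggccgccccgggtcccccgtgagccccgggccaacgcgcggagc

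TGATGNAA, searched on both strands, was in 5 of the 12 windows, against 1304 of all 32851 promoter windows of that length (3.97%). These were the windows of Nupr1, Chac1, Trib3, Asns and 1 of the 2 for Vldlr. Counting from 0 at the annotated start, the match began at -110 in Nupr1, -193 in Chac1 and -200 in Vldlr, each time with the letters TGATGCAA on the other strand. In Asns, whose promoter element is a textbook example of an amino acid response, the letters were TGATGAAA, from position -23. The Trib3 match to this pattern, TGATGTAA, began at position 14 after the start and so falls outside the printed stretch. A looser pattern, TGNNGCAA, was written after the windows had been read, and it overlaps the first wherever the letters are TGATGCAA. It was in 6 of the 12 windows and in 11.4% of all windows. It added Sesn2 and Atf5 to the genes with a match, the second Atf5 window having none, and further matches in Chac1 and Trib3. Either pattern was in 7 of the 12 windows (58.3%), which belong to 7 of the 10 genes, and in 14.2% of all windows. Ddit3, Atf4 and Ddit4 had neither within these 300 bases, which says only that those letters are not in these windows. A match is a description of letters and not evidence of a bound site. Because these genes are usually grouped by this element, nothing is read from the distance to the shares of all windows.

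**Figure D1:**
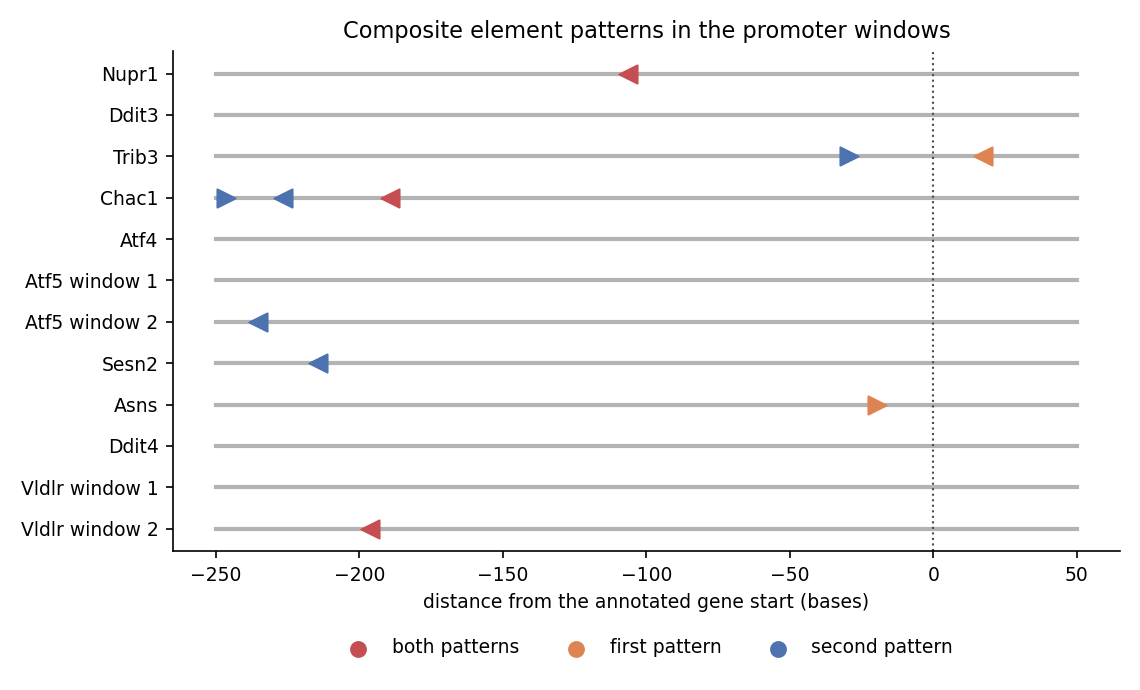
Matches to the 2 composite element patterns in the 12 RefSeq promoter windows of the 10 genes, by distance from the annotated start in bases. Each grey line is a window, each triangle a match pointing along its strand, and the colours separate TGATGNAA (first pattern), TGNNGCAA (second pattern) and letters that fit both; windows of 1 gene are numbered by position, and 7 genes have at least 1 match.

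All 10 genes gave a higher signal on the ELA-EpiSC array, 6 of them by at least 1 on the log2 scale (2-fold), and none was lower by that size. That size is the limit used here. The paper's methods set it for ES against ELA cells, together with a limit on the corrected p-value, which 1 array a group does not allow. The 6 were Nupr1, Ddit3, Chac1, Trib3, Atf5 and Sesn2. Of all 16649 genes, 4.54% were higher in ELA-EpiSC by at least 1 and 4.46% were higher in EpiSC by at least 1. These shares are the backgrounds for these counts and for those of every list below. Nupr1 and Ddit3 were also past 2.5, as were 0.402% of all genes. A higher value of any size was given by 50.2% of all genes. Because the genes were picked with these values known, nothing is read from the distance to those shares. The median difference of the 10 was 1.21 and the mean 1.52, beside a median of 0.0014 over all genes. Levels are log2 signals after background correction and quantile normalization, differences are ELA-EpiSC minus EpiSC, and in such bulk RNA fewer cells of a type and less RNA per cell cannot be told apart.

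**Figure D2:**
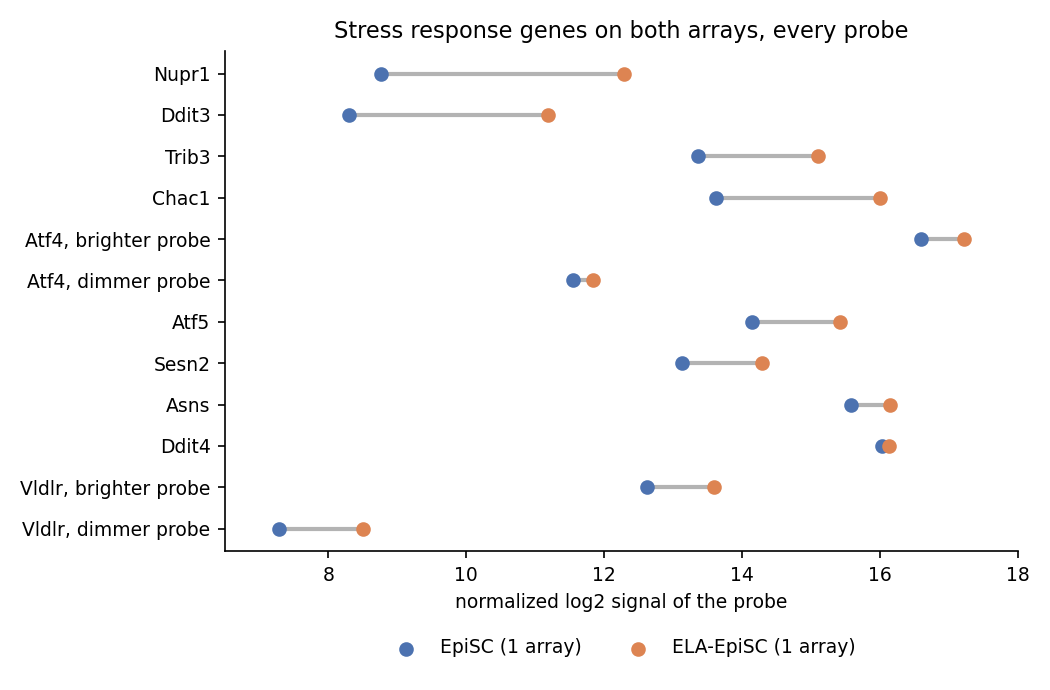
Normalized log2 signal of all 12 probes for the 10 genes on the EpiSC array (blue) and the ELA-EpiSC array (orange), 1 array each, so no error bars are drawn. The orange point lies to the right in each row, by 3.52 for Nupr1 and by 0.10 for Ddit4; levels of different probes are not comparable with each other.

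The scatter available was that between spots of 1 array. For 312 probes printed 10 times and detected on both arrays, the difference between spots at the same positions had a root mean square SD of 0.102. Each of the 12 probes had 1 spot per array, was well above background on both, and shared no run of 20 bases with a probe for another gene. The scanner software's own error estimate was between 10.0% and 10.3% of the signal for these spots. At the brightest probe of each gene, all 10 differences were larger than this spot SD. Of these, 9 were more than 5 times as large, Ddit4 being the exception. The dimmer Atf4 probe was at 2.78 times the spot SD. Within an array, the median SD between spots of a probe was larger, 0.127 for EpiSC and 0.164 for ELA-EpiSC. This SD covers printing and reading of spots and leaves out the variation between cultures, between RNA pools and between labellings.

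Nupr1 encodes a small stress-inducible chromatin-associated protein and is itself known as an ATF4 target. Its probe, at chr7:133766978-133767037 on the minus strand (mm9, the build of the array design), gave a log2 level of 8.77 on the EpiSC array and 12.29 on the other. The difference of 3.52, an 11.5-fold higher level in ELA-EpiSC, was number 11 from the top of the 16649 genes and the highest of the 10. The unnormalized scanner signals were 359.5 and 5470.3, a ratio of 15.2, over a local background between 19 and 30 for all probes of the 10 genes. Normalization thus made the Nupr1 difference smaller than in the raw signals, with the ELA-EpiSC array still far higher. Under 16 alternative ways of processing, it lay between 3.48 and 4.06.

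Ddit3 encodes CHOP, the bZIP factor made downstream of ATF4 that turns on death-related and recovery genes. Its probe spans 304 bases of the genome (chr10:126732518-126732821, plus strand), more than its own 60 bases. The log2 level moved from 8.30 (EpiSC) to 11.18 (ELA-EpiSC), so the ELA-EpiSC value was higher by 2.88, or 7.38-fold, number 34 of 16649. Raw signals were 257.2 and 2532.0. Over the alternatives the difference ran from 2.84 to 3.42.

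Trib3 and Chac1 are ATF4 and CHOP targets that act as brakes or effectors of the response: TRIB3 is a pseudokinase that binds AKT and ATF4, and CHAC1 is an enzyme that degrades glutathione. Chac1 (chr2:119179990-119180049, plus strand) had levels of 13.62 (EpiSC) and 16.01 (ELA-EpiSC), which differ by 2.38, or 5.22-fold. Its raw signals of 11621.4 and 64623.2 were below saturation, which no spot for a mouse transcript reached on either array. Trib3 (chr2:152163161-152163220, minus strand) was at 13.36 and 15.11, a difference of 1.75 or 3.36-fold. These were numbers 84 and 223 of all genes. Both stayed past 1 under all 16 alternatives, the lowest values being 2.17 for Chac1 and 1.58 for Trib3.

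Atf5 and Sesn2 were past 1 by a smaller margin. Atf5, a bZIP factor whose mRNA is translated under stress in the way Atf4 mRNA is, read 14.14 (EpiSC) and 15.42 (ELA-EpiSC; chr7:52067627-52067686, minus strand). The difference was 1.28, or 2.42-fold. Sesn2 encodes sestrin 2, a leucine-binding inhibitor of mTORC1 that is also a p53 target. It read 13.13 and 14.28 (chr4:132048858-132048917, minus strand), a difference of 1.15, or 2.22-fold. Their lowest values over the alternatives were 1.03 for Atf5 and 1.07 for Sesn2, so neither crossed below 1.

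Vldlr, the very low density lipoprotein receptor, whose induction by ATF4 is known under ER stress, lay just below the limit. Its brighter probe (chr19:27324050-27324109, plus strand) read 12.62 (EpiSC) and 13.59 (ELA-EpiSC), a difference of 0.97 or 1.96-fold. Its dimmer probe (chr19:27321104-27321163) read 7.28 and 8.50, a difference of 1.22. The probes thus lie on both sides of 1, and the gene was past it under 7 of the 16 alternatives. Sesn2 at 1.15 and Vldlr at 0.97 were the genes nearest to the limit on either side.

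Atf4 itself was measured by 2 probes. The brighter (chr15:80087902-80087961, plus strand) read 16.59 (EpiSC) and 17.22 (ELA-EpiSC), a difference of 0.63 or 1.54-fold. The dimmer read 11.55 and 11.84, a difference of 0.28 or 1.22-fold. The raw signals of the probes had nearly equal ratios of ELA-EpiSC to EpiSC, 1.48 for the brighter and 1.49 for the dimmer, so the probes part only after quantile normalization, whose shift depends on the level. Over all alternatives the Atf4 difference ran from 0.28 to 1.16, past 1 only where the spike-in probes were set equal.

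Asns and Ddit4 showed the smallest differences. Asns, the asparagine synthetase gene and a classical ATF4 target, read 15.57 (EpiSC) and 16.14 (ELA-EpiSC; chr6:7625171-7625228, minus strand). The difference was 0.57, or 1.48-fold, and ran from 0.26 to 1.10 over the alternatives. Ddit4 encodes REDD1, an inhibitor of mTORC1 induced by ATF4 and also by hypoxia, glucocorticoids and p53. It read 16.03 and 16.14 (chr10:59412486-59412545, minus strand), a difference of 0.10 that was 1.03 times the spot SD. The sign turned negative, down to -0.32, under each of 3 scalings that replaced the quantile step by the array's 75th percentile or its median, so Ddit4 has no settled direction.

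**Figure D3:**
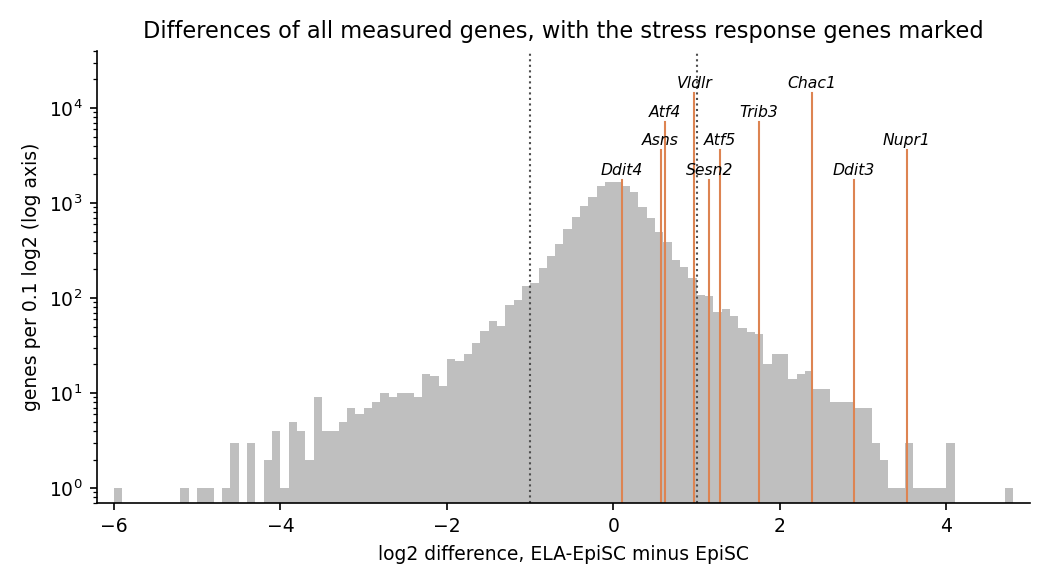
Number of genes per 0.1 of log2 difference (ELA-EpiSC minus EpiSC, log vertical axis) for all 16649 measured genes in grey, with orange lines at the 10 stress response genes and dotted lines at -1 and 1. Nupr1 at 3.52 and Ddit3 at 2.88 stand in the thin right tail, whereas Ddit4 at 0.10 stands in the bulk.

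**Figure D4:**
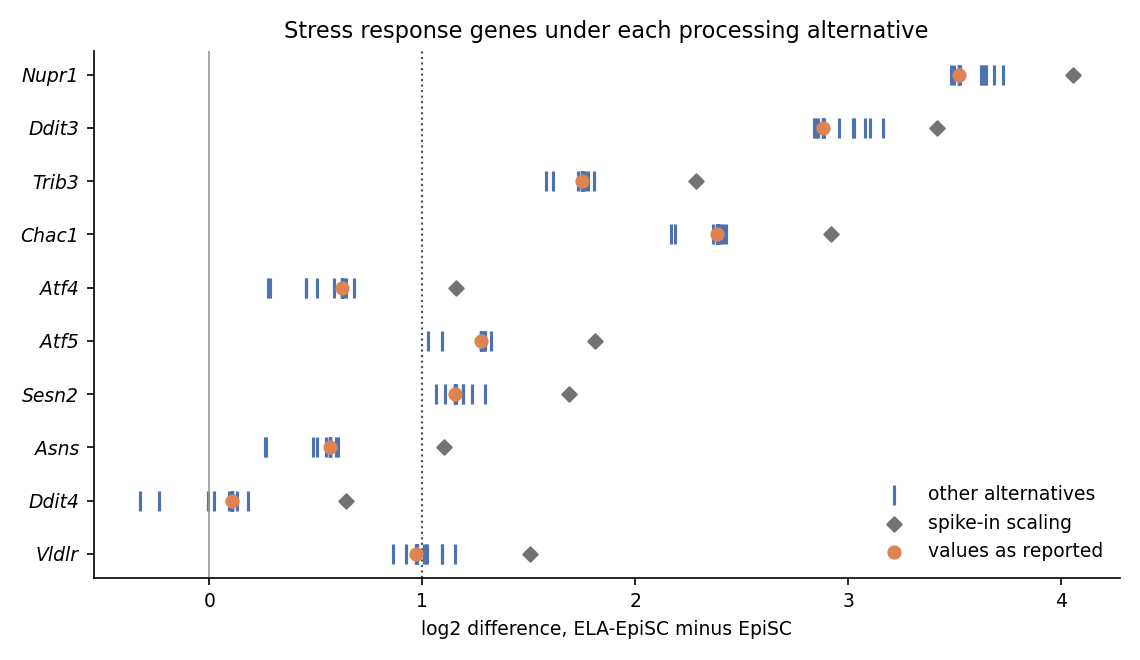
Log2 difference of each of the 10 genes as reported (orange), with the spike-in probes set equal (grey diamonds) and under the other alternatives (blue ticks). The 6 genes reported past 1 (dotted line) stay past it throughout, and Ddit4 crosses 0.

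Upstream of ATF4, the kinases showed no common direction. Of 7 genes for the eIF2α kinases, eIF2α and its phosphatase adaptors, 1 was higher in ELA-EpiSC by at least 1, none was lower by that size, and the median was 0.22. That 1 was Ppp1r15a (GADD34, the stress-induced adaptor that dephosphorylates eIF2α and is itself an ATF4 and CHOP target), whose level was 12.17 (EpiSC) and 13.65 (ELA-EpiSC), higher by 1.48. Ppp1r15b, the constitutive adaptor, differed by 0.54. Among the kinases, Eif2ak2 (PKR, activated by double-stranded RNA and induced by interferon) differed by 0.94 and Eif2ak1 (HRI, the haem sensor) by 0.22. Eif2ak3 (PERK, the ER sensor) differed by -0.17 and Eif2ak4 (GCN2, the sensor of uncharged tRNA) by -0.24, both turning positive when arrays were scaled to their median or to the spike-ins. Eif2s1 (eIF2α) differed by -0.25 at its brightest probe and by 0.30 at the other, so its probes disagree, and the first turned positive with the spike-ins. mRNA levels of kinases do not report their activity, and eIF2α phosphorylation was not measured.

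Among the bZIP factors that pair with ATF4 or compete for its sites, 2 of 5 measured were past 1 in ELA-EpiSC and none in EpiSC. The shares of all genes were 4.54% and 4.46%, and the median of the 5 was 0.97. Atf3, an ATF4-induced factor that is also an immediate-early gene, read 9.32 and 12.07, a difference of 2.75 or 6.71-fold. Cebpb, which supplies the C/EBP side of the element, read 10.93 and 13.14, a difference of 2.21 or 4.64-fold. Cebpg, a main partner of ATF4 on amino acid genes, was at 0.97 and Atf2 at 0.39. Nfe2l2 (NRF2, the oxidative stress factor) differed by -0.78, and Cebpa was below the minimum level.

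ATF4 is known to act on amino acid supply, and the genes listed for it were mostly higher in ELA-EpiSC. Of 12 genes for serine, glycine, folate-linked carbon and proline metabolism, 7 were past 1 in ELA-EpiSC and none in EpiSC, with a median of 1.27. They were Cth (cysteine synthesis, 1.97), the mitochondrial folate enzymes Aldh1l2 (1.73), Mthfd2 (1.67) and Shmt2 (1.10), Gpt2 (alanine transaminase, 1.67), Pck2 (mitochondrial PEPCK, 1.44) and Aldh18a1 (proline synthesis, 1.44). The serine synthesis enzymes themselves were below that size, Phgdh at 0.55, Psat1 at 0.38 and Psph at 0.24. Cbs (-0.07, turning positive under 2 scalings) lay within the spot SD, as did Pycr1 at its brightest probe (0.05) but not at its other probe (0.30).

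Of 8 amino acid transporters measured, 4 were past 1 in ELA-EpiSC, all 8 were higher there and the median was 0.97. Slc7a1 (cationic amino acids) differed by 2.14, Slc6a9 (glycine) by 1.35, Slc1a5 (glutamine) by 1.12 and Slc3a2 (the heavy chain shared by several exchangers) by 1.10. Slc7a11, the cystine carrier, was listed too but lay below the minimum level, at 6.23 and 7.40.

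The tRNA synthetases, which charge tRNAs with amino acids, differed less. All 13 cytosolic synthetases known to respond to ATF4 were higher in ELA-EpiSC, between 0.22 (Nars) and 0.87 (Aars), with a median of 0.59 and none past 1. Aars, Iars (0.79) and Mars (0.74) had the largest differences. The 7 other cytosolic synthetases had a median of 0.24, from -0.13 (Dars, turning positive under 2 scalings) through 0.27 (Hars) and 0.38 (Kars) to 0.73 (Farsb). Under all 16 alternatives the first median stayed positive, at 0.35 to 1.12, as did the second, at 0.06 to 0.78. RefSeq windows were found for 8 of the 13 responsive genes and 5 of the 7 others, too few to compare the groups. TGATGNAA (3.97% of all windows) was in 5 of the 8 (Aars, Gars, Iars, Tars and Yars) and in 0 of the 5. TGNNGCAA (11.4% of all windows) was in 4 of the 8 and 1 of the 5, and either pattern (14.2%) in 5 of the 8 and 1 of the 5.

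Among 12 further ATF4 and CHOP targets, 4 were past 1 in ELA-EpiSC and none in EpiSC, with a median of 0.61. The hormones Fgf21 (7.70 and 10.12, a difference of 2.42) and Gdf15 (7.79 and 10.09, a difference of 2.29) are secreted signals of cell stress. Stc2, a secreted glycoprotein, differed by 1.87, and Ndrg1, also a hypoxia gene, by 1.22. Eif4ebp1, a translation repressor, was at 0.99. Ero1l, an ER oxidase, was the 1 gene of the list that was lower, at -0.18, and turned positive under 2 scalings. Over the enzymes, transporters, responsive synthetases and further targets together, 15 of 45 measured genes were past 1 in ELA-EpiSC (33.3%) and none was in EpiSC. Of these 45, 43 were higher in ELA-EpiSC and the median was 0.71. Of all genes, 4.54% were higher in ELA-EpiSC by at least 1 and 50.2% by any amount. These lists were chosen with earlier results of these data known, so nothing is read from the distance to those shares. With the spike-ins set equal, the counts past 1 were 8 enzymes, 7 transporters, 12 responsive synthetases and 8 further targets, the highest of all alternatives at that limit. The lowest were 5, 3, 0 and 2.

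**Figure D5:**
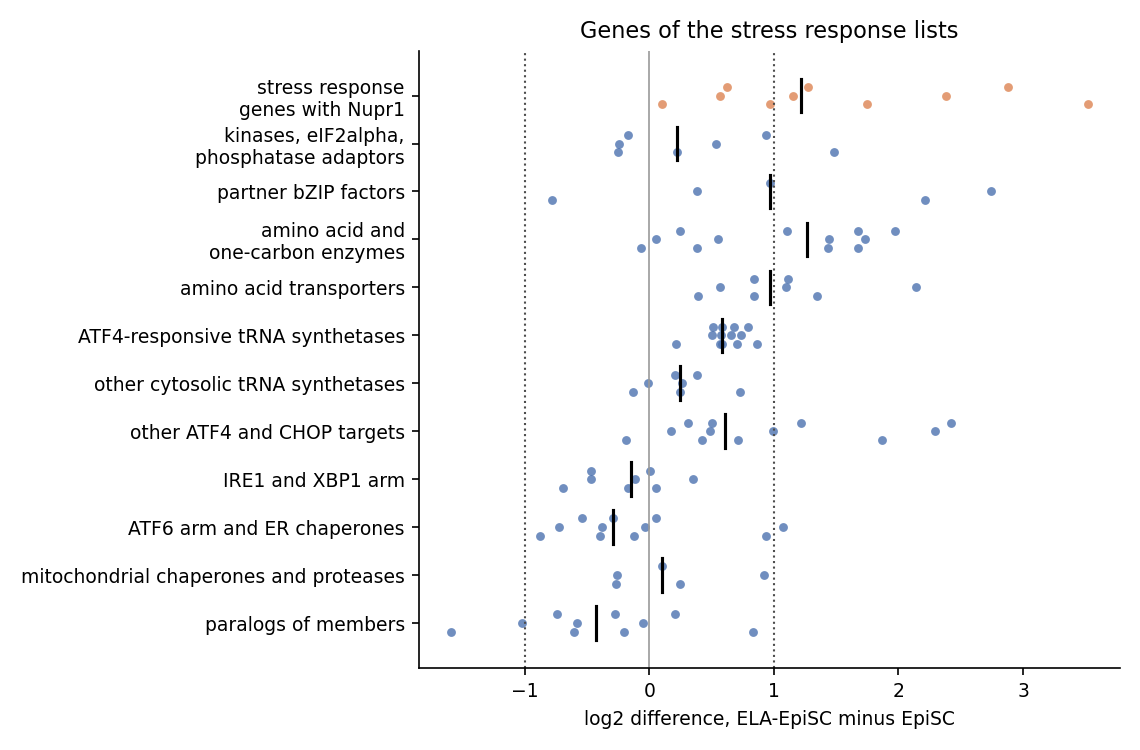
Log2 difference (ELA-EpiSC minus EpiSC) of each measured gene of the lists, with the list's median as a black bar and dotted lines at -1 and 1. The 10 stress response genes (orange) and the enzyme and transporter lists have medians between 0.97 and 1.27, whereas the medians of the IRE1, ATF6 and paralog lists are below 0 (above 0 with the spike-ins set equal).

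Lists for the other branches of the ER stress response had medians below 0. Of 8 genes of the IRE1 and XBP1 arm, which expands secretory capacity, none was past 1 either way, and the median was -0.14, turning positive under median scaling and under spike-in scaling (0.39). Xbp1 itself differed by -0.46, Sec24d by -0.47 and Sec61b by -0.69, Xbp1 and Sec24d having turned positive only with the spike-ins. Of all 16649 genes, 4.54% were past 1 in ELA-EpiSC and 8291 were lower there by any amount. Of 11 genes of the ATF6 arm and ER chaperones, 1 was past 1 in ELA-EpiSC and 8 were lower there, with a median of -0.29 (0.24 with the spike-ins). That gene was Herpud1, an ER degradation factor that also answers to ATF4, at 1.08. Atf6 differed by 0.94, Hspa5 (BiP, the main ER chaperone) by -0.40, Manf by -0.72 and Sdf2l1 by -0.88, with Hspa5 turning positive only with the spike-ins. Splicing of Xbp1 mRNA and cleavage of ATF6 were not measured.

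Mitochondrial chaperones and proteases, which some mitochondrial stresses raise together with ATF4 targets, had no member past 1. Their median was 0.10 over 5 genes and turned negative under 3 scalings. Hspa9 differed by 0.92, Hspe1 by -0.27 and Lonp1 by -0.26, the last pair turning positive with the spike-ins.

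The paralog list held paralogs and more distant family relatives of the 10 genes, and they were mostly lower in ELA-EpiSC. Of 10 measured, none was past 1 in ELA-EpiSC, 2 were past 1 in EpiSC and 8 were lower in ELA-EpiSC. Of all 16649 genes, 4.46% were past 1 in EpiSC and 8291 were lower in ELA-EpiSC by any amount. This list was also chosen with earlier results known, so nothing is read from the distance to those values. The median was -0.43 and turned positive (0.11) with the spike-ins. Nupr1l, the Nupr1 paralog, read 8.90 (EpiSC) and 7.31 (ELA-EpiSC), a difference of -1.59, although its 3 probes ranged from -1.59 to -0.51. Trib2 differed by -1.02 at its brightest probe (-0.26 at the other) and was past 1 under 10 of 16 alternatives. Trib1 differed by 0.83 at its brightest probe (0.04 at the lowest), beside 1.75 for Trib3. Sesn1 (-0.74) and Sesn3 (-0.60) differed in the opposite direction to Sesn2, and Chac2 (-0.58) to Chac1. Lrp8 was at 0.20. Ddit4l (-0.28), Atf1 (-0.20) and Asnsd1 (-0.05) were closer to 0 and turned positive with the spike-ins. Atf1 was listed as another bZIP factor and is not a close paralog of Atf4 or Atf5.

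Scaling and cell makeup bear on these values. The 8 detected spike-in probes, RNA added in labelling, read 0.54 lower on the ELA-EpiSC array after quantile normalization (-0.86 to -0.26), so setting them equal adds that amount to every difference. It moves the median of all genes to 0.54 and the share of genes past 1 that were higher in ELA-EpiSC from 50.5% to 89.0%. Scaling to each array's median moves them to 0.15 and 68.3%. The median of the 10 genes was 1.75 with the spike-ins and 1.31 with the median scaling, so it moved along with that of all genes, and which scaling is closer to the RNA amounts was not tested. The arrays also differed in markers of other cell types. All 8 epiblast markers were measured, with none past 1 at its brightest probe. Among them were Pou5f1 at 0.19, Dnmt3b at -0.84, Nanog at 0.32 and Sall4 at -0.31. The probes of Nanog disagreed in sign, from -0.31 to 0.32. Those of Dnmt3b reached -1.11, and the gene was past 1 in EpiSC under 2 of 16 alternatives. The median of the 8 was -0.02, turning positive with the spike-ins and in the deposited values. Of 6 visceral endoderm markers measured, 3 were past 1 in EpiSC (Hnf4a -5.12, Gata4 -2.39 and Ttr). Ttr was not well above background on the ELA-EpiSC array, and its EpiSC level was higher by at least 3.42 on the log2 scale, taken against the lowest signal that was. Over the 5 markers detected on both arrays, the mean level was 13.21 in EpiSC and 11.32 in ELA-EpiSC. Of 4 fibroblast markers measured, 2 were past 1 in ELA-EpiSC (Col1a1 3.72, Pdgfra 1.77), from dim EpiSC levels of 7.07 and 7.98. Col1a2 was at 0.08 and Thy1 at 0.05, both below 0 with the processed signal. At a minimum mean log2 of 9, neither Col1a1 nor Pdgfra was kept and the median was 0.07. Mean levels of the 4 were 9.01 and 10.42, with Lum not well above background on either array. Of 4 neural markers, Nes was past 1 (2.11), Tubb3 was at 0.72 and Map2 at 0.60. Sox1 was at -0.09 at its brightest probe and 0.16 at the other, and its sign turned under 4 of 15 alternatives. The mean levels of the 4 were 9.58 and 10.42, with Pax6 not well above background. Of 7 mesoderm markers, T (2.48) and Mixl1 (1.97) were past 1 in ELA-EpiSC and Mesp1 (-1.66) in EpiSC. The probes of Kdr (-0.43 at the brightest and 1.49 at the other), Hand1 (-0.56 and 0.22) and Tbx6 (-0.26 and 0.11) disagreed in sign. The sign of the median of the 7 (-0.26) turned under 9 of 16 alternatives. The part of these cell types in the stress response differences was not tested.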

How the data were processed

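RNA of 2 pools was labelled with Cy3 (50 ng per the labels) and hybridised to 1-colour Agilent mouse arrays of 62976 spots. The paper's methods state a larger amount of labelled RNA for its arrays. Per the file headers, the scanner tables hold spot intensity from Feature Extraction 10.7.3.1, while the submitters' processing notes name version 9.1 and limma. The deposited log2 table holds the authors' own limma values, corrected for background and then quantile normalized, the correction method not being stated in the sources used here. It was used as an alternative.

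Mean spot intensity was corrected with normexp (offset 50), control and outlier spots were left out, and log2 values were quantile normalized (limma 3.58.1, R 4.3.3). Spots of a probe were averaged, and a gene was taken by its brightest probe well above background on at least 1 array, with a mean log2 of at least 7.5. The steps were tested on simulated data. The genes, the 16 further gene lists and the limits were chosen with earlier results of these data known. Named were all 10 genes and all kinases, partner factors and genes of the paralog list. Of other lists, those past 1 were named and, where fewer than 3 passed, the largest differences up to 3. Further genes named from these lists were chosen after their values were seen. Between 65.0% and 65.9% of probes were detected, and precision is limited by 1 array a group. Alternatives changed the background, signal, scaling, probe rule, filters and limits. One gene of the paralog list is not reported here and was left out of its counts. RefSeq tables (GRCm38.p6) gave promoters. All 12 probe accessions matched the symbol on the array, and positions within exons were not analysed here.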

Additional observations from a re-analysis of the deposited data

How the results depend on the processing

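The count of 6 stress response genes past 1 and none past it in the other direction was between 6 and 9 under the 16 alternatives at that limit, and 2 at a limit of 2.5. Their median of 1.21 was 1.07 with the processed signal scaled to the 75th percentile, 1.08 with that scaling after normexp and 1.75 with the spike-ins set equal. Counts over all genes, given first for ELA-EpiSC above EpiSC and then for the reverse, were 756 and 742 as reported, 2482 and 306 with the spike-ins, 1846 and 1823 at 1.5-fold, and 67 and 108 at 2.5, and the count for EpiSC above ELA-EpiSC was 481 at a minimum mean log2 of 9. The added spike-in shift and the changed limits and minimum account for these counts by construction. Of the 10 genes, 9 kept their sign throughout, Ddit4 being the exception. No paired analysis was possible because a group holds 1 array only. Without replicates, the spread between cultures is unknown. Differences of dim probes are compressed by the normexp offset.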

Other observations

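Outside the stress response genes, TGATGNAA was found in the promoter windows of Atf3, Fgf21, Herpud1, Pck2, Pycr1, Slc1a4 and Slc7a11 among the listed pathway genes, besides the synthetases named above. By list this was 2 of 11 windows for the amino acid enzymes (18.2%), 2 of 9 for the transporters (22.2%) and 1 of 13 for the further ATF4 and CHOP targets (7.69%). It was 0 of 11 for the paralog list, beside 3.97% of all windows. TGNNGCAA, found in 11.4% of all windows, was in 2 of 11, 3 of 9, 2 of 13 and 1 of 11 windows of the same lists. TGATGNAA was also in 1 of 6 windows of the partner factors (16.7%) and 1 of 9 of the ATF6 arm and ER chaperones (11.1%). Among the neural markers it was in 1 of 9 windows (11.1%), that of Tubb3. The log2 differences of the measured pathway genes named in this paragraph ran from 2.75 for Atf3 to 0.05 for Pycr1.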
